A study of Rattus norvegicus with 56 samples.

Results

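The microRNAs of normal rat amniotic fluid were set against those of normal maternal serum, with the samples of the NC group only. The members were all 7 amniotic fluid samples and all 7 maternal serum samples whose labels name the NC group, 14 of the 56 samples of the series, and the counts of both fluids were joined by microRNA name. The animals were Sprague-Dawley rats at embryonic day 19, and NC dams had received distilled water by gavage in place of dimethadione (DMO), the agent with which ventricular septal defect (VSD) was induced in the treated dams. The 7 amniotic fluid and 7 maternal serum samples of the VSD group, from pregnancies exposed to DMO, were used only to repeat each comparison, and the 7 NC fetal myocardium samples were set beside both fluids as a description.

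Amniotic fluid was the cell-free supernatant of fluid drawn from the exposed uterus, and serum was taken from clotted blood of the dam after cardiac puncture. Amniotic fluid RNA was purified with a HiPure kit, built into libraries with the QIAseq kit and read on a NovaSeq, while serum RNA went through a miRNeasy kit, the TruSeq Small RNA kit and a HiSeq. Fluid, extraction, library kit and sequencer therefore changed together, and their parts in any difference cannot be told apart. Myocardium shared the library kit and the sequencer of serum, but its RNA came from wax blocks. The labels do not say which dam or litter a sample came from, so that the p-values measure the spread between these samples.

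A microRNA is a short RNA that guides a silencing complex to messenger RNAs, mainly through its seed, the bases near the 5′ end that pair with the target. MicroRNAs leave cells inside vesicles or bound to protein and survive in body fluids, where they are read as traces of the tissues that shed them. Amniotic fluid in late gestation is fed by fetal urine, lung liquid and shedding from skin and membranes, whereas serum receives its microRNAs mostly from blood cells, platelets, vessel walls and liver.

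The sequences that carry the comparison come first, as RefSeq lists them on the GRCr8 build, written 5′ to 3′ with the seed (bases 2 to 8) in capitals. The first set shows the microRNAs that led amniotic fluid, with the position of each mature microRNA.
miR-3473: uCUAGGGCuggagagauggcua (chr13:42051730-42051751, plus strand, inside Zranb3)
miR-203a-3p: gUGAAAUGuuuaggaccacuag (chr6:137020756-137020777, plus strand, in no other listed gene)
miR-205: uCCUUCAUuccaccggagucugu (chr13:107564588-107564610, minus strand, in no other listed gene)
miR-199a-3p: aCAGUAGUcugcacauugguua (chr13:77116294-77116315, plus strand, inside Dnm3)
miR-483-5p: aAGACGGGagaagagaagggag (chr1:207247903-207247924, minus strand, inside Igf2)
miR-434-3p: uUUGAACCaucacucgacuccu (chr6:134330451-134330472, plus strand, inside Rtl1)

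The next set shows microRNAs that led maternal serum. MiR-486 and miR-30d-5p also belonged to that group and are named only.
miR-191a-5p: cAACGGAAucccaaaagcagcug (chr8:118142641-118142663, plus strand, inside Dalrd3)
miR-16-5p: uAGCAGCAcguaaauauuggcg (chr2:155555343-155555364, plus strand, inside Smc4)
miR-223-3p: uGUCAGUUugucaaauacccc (chrX:65151450-65151470, plus strand, in no other listed gene)
miR-128-3p: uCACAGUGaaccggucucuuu (chr13:42251933-42251953, plus strand, inside R3hdm1)
miR-29a-3p: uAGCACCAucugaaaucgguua (chr4:60617968-60617989, minus strand, in no other listed gene)

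A further copy of miR-128-3p lies inside Arpp21 on chromosome 8. No seed was shared within or between these sets. In amniotic fluid 493 microRNAs were listed and in serum 518, of which 434 were listed in both. The 59 names of the amniotic fluid table only held 1.81% of its counts, and the 84 names of the serum table only held 0.0332% of the serum counts. The totals ran from 79234 to 248295 counts in amniotic fluid and from 271578 to 581350 in serum, so that low microRNAs were measured less precisely in amniotic fluid. Samples of the same fluid ranked the tested microRNAs alike, with Spearman's rho of 0.87 to 0.94 between amniotic fluid samples and 0.93 to 0.98 between serum samples. Between a sample of amniotic fluid and a sample of serum, rho was 0.35 to 0.50. These correlations are across microRNAs, which are not independent replicates.

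The counts of maternal serum were gathered in few microRNAs, and those of amniotic fluid were spread over many. The 10 most abundant microRNAs of a sample held 72.9% ± 2.13 (SD, n = 7) of its counts in serum and 45.7% ± 1.5 (SD, n = 7) in amniotic fluid. The lowest serum sample, at 69.7%, stood above the highest amniotic fluid sample, at 47.7%. The exact two-sided permutation test over all 3432 groupings gave p = 0.000583, the smallest it can give with 7 against 7. The number of microRNAs detected differed less. At a common depth of 79234 counts the expected number was 319 ± 36.2 (SD, n = 7) in amniotic fluid and 309 ± 8.47 (SD, n = 7) in serum, with an exact permutation p of 0.494, while at 39617 counts it was 302 ± 27.7 and 265 ± 8.31, with an exact permutation p of 0.00699.

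**Figure D1:**
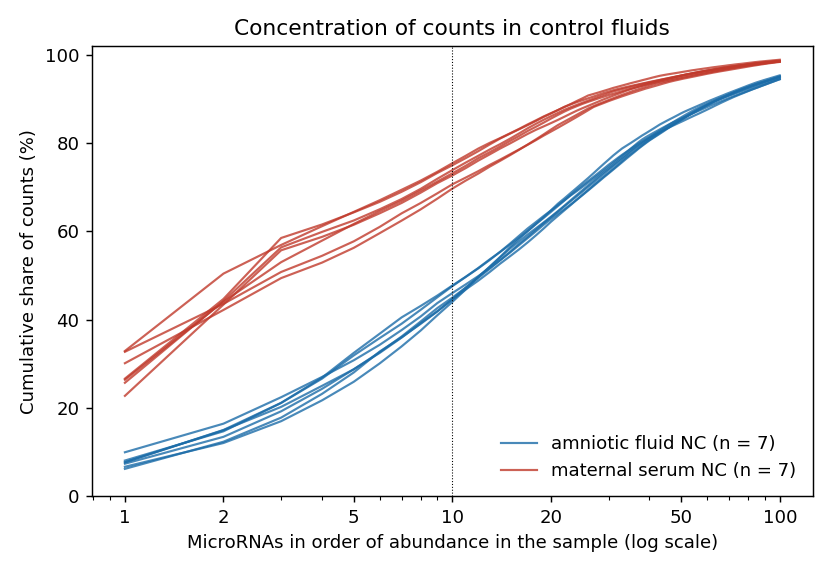
Cumulative share of counts (%) against the order of abundance of the microRNAs in each sample (log scale), with 1 line per sample, blue for amniotic fluid NC and red for maternal serum NC. At the dotted line, which marks the 10 most abundant microRNAs, the serum lines lie between 69.7% and 75.4% and the amniotic fluid lines between 44.0% and 47.7%.

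Of the 10 microRNAs with the largest mean share in each fluid, 1 was common to both lists, miR-16-5p. Of the 50 largest in each, 25 were common, 50% of either list. MiR-191a-5p alone held 27.9% of serum counts on average, with 206778 to 329003 counts per 1000000 listed microRNA counts (CPM) and a median of 266444. In amniotic fluid it lay between 6413 and 10191 CPM, with a median of 8557. Its ranges were far apart, and the mean of the 3 leading microRNAs of serum together, miR-191a-5p, miR-16-5p and miR-486, was 54.4% of serum counts against 8.69% of amniotic fluid counts. In NC myocardium, prepared with the kit of serum, the same 3 held 1.59% on average.

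Amniotic fluid was led by miR-3473, with a lowest, median and highest value of 41584, 66228 and 99591 CPM against 480, 678 and 968 CPM in serum. Next came miR-203a-3p, a microRNA of stratified epithelium, with 50903, 59848 and 76778 CPM against 356, 544 and 792 CPM. MiR-199a-3p, a microRNA of mesenchymal cells, had 18632, 61462 and 80857 CPM against 2711, 3891 and 4514 CPM. MiR-483-5p, which lies within the imprinted growth factor gene Igf2, had 19340, 34625 and 60935 CPM against 66.4, 306 and 553 CPM. Each of these 4 was higher in every amniotic fluid sample than in any serum sample.

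To compare microRNAs without a scale between libraries, each was also given its percentile rank among the tested microRNAs of its sample. A rank of 100 is the most abundant. Ranks, like shares, do not separate the fluid from the kits. A DE-microRNA was a microRNA with a Benjamini-Hochberg adjusted p under 0.05 in edgeR's quasi-likelihood test and a fold change of at least 2. Of 235 microRNAs tested, 92 (39.1%) were DE-microRNAs higher in amniotic fluid and 84 (35.7%) were DE-microRNAs higher in serum. With scaling by library size only, the split was 130 against 47, and the median log2 fold change of all tested microRNAs moved from -0.03 to 1.58. The choice of scale thus decided many calls of modest size. All 92 were called under library size only too, whereas of the 84 serum calls 47 were still called and 10 had a log2 fold change above 0, among them let-7g-5p, miR-23a-3p, miR-30a-3p, miR-423-5p and miR-484. Leaving out the TMM factors moved log2 fold changes toward amniotic fluid, so that amniotic fluid calls could hardly be lost. This setting therefore does not show that they were firmer than the serum calls. Ranks do not use a scale. In 69 microRNAs (29.4% of those tested) all 7 amniotic fluid ranks lay above all 7 serum ranks, and in 67 (28.5%) all 7 serum ranks lay above. Of these, 68 and 67 were also DE-microRNAs in the same direction. Log2 fold changes below are on the TMM scale, amniotic fluid over serum, with the standard error (SE) and the adjusted p of edgeR's test.

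**Figure D2:**
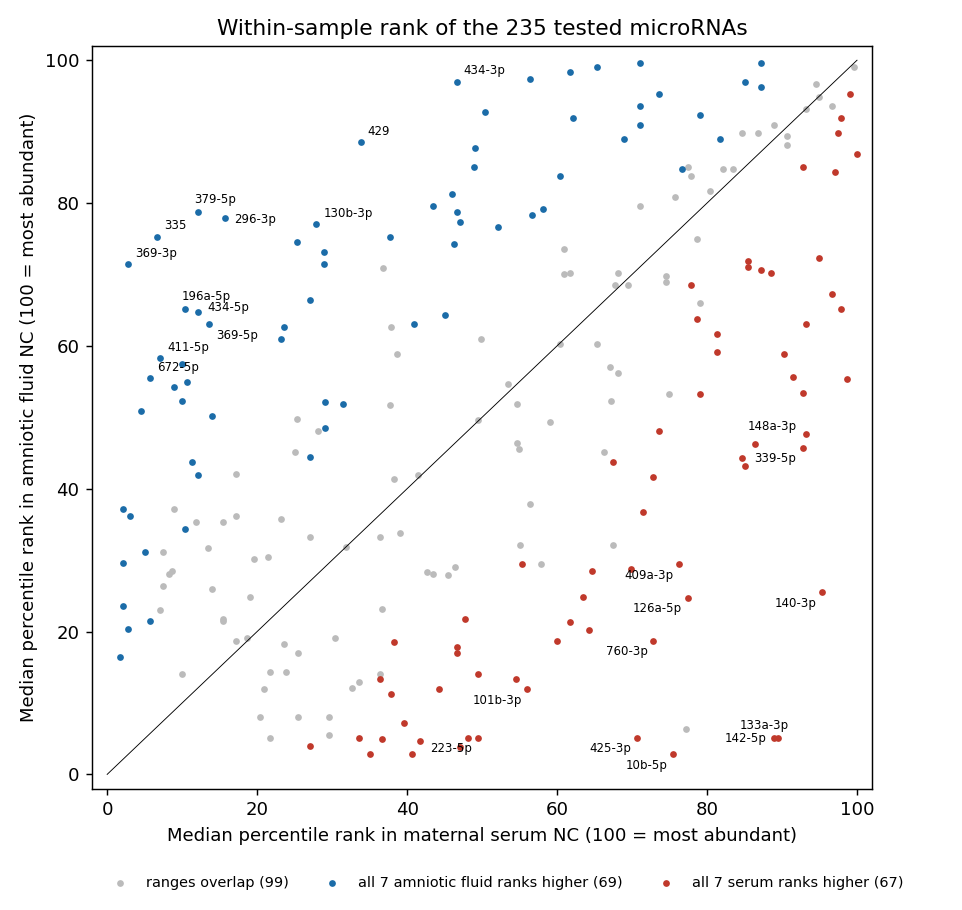
Median percentile rank in amniotic fluid NC against that in maternal serum NC for the 235 tested microRNAs (n = 7 each), with blue and red points for the 69 and 67 microRNAs whose ranks in the 2 fluids did not overlap and grey points for the other 99. The labelled points are the 12 in each direction with the largest rank difference, such as miR-369-3p at 71.5 against 2.8 and miR-140-3p at 25.5 against 95.3.

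The 12 DE-microRNAs that stood furthest above serum by rank in amniotic fluid were miR-335, miR-369-3p, miR-379-5p, miR-296-3p, miR-429, miR-196a-5p, miR-434-5p, miR-411-5p, miR-434-3p, miR-672-5p, miR-369-5p and miR-130b-3p, of which 6 belong to the Dlk1-Dio3 cluster described below. That cluster held 33 of the 235 tested microRNAs and 26 of the 69 whose amniotic fluid ranks all lay above those of serum. MiR-335, encoded in the imprinted gene Mest, had 1372, 2341 and 3960 CPM (lowest, median, highest) in amniotic fluid and 0, 5.53 and 34.4 CPM in serum, a log2 fold change of 6.35 (SE 0.55, adjusted p = 4.21e-09), or 6.95 without serum replicate 2. MiR-296-3p had a median of 3030 CPM against 20.6 CPM, a log2 fold change of 5.30 (SE 0.38, adjusted p = 2e-10). MiR-130b-3p had a median of 3124 CPM against 53.5 CPM, a log2 fold change of 4.0 (SE 0.36, adjusted p = 6.79e-09).

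In the other direction the 12 were miR-133a-3p, miR-142-5p, miR-10b-5p, miR-140-3p, miR-425-3p, miR-760-3p, miR-126a-5p, miR-339-5p, miR-409a-3p, miR-148a-3p, miR-223-5p and miR-101b-3p. MiR-140-3p, a microRNA best known from cartilage and encoded within Wwp2, had 12092, 16105 and 20753 CPM in serum and 127, 181 and 530 CPM in amniotic fluid, a log2 fold change of -7.78 (SE 0.37, adjusted p = 9.11e-13). MiR-339-5p had a median of 9306 CPM in serum and 530 CPM in amniotic fluid, a log2 fold change of -6.12 (SE 0.35, adjusted p = 1.14e-11). The ranges of both microRNAs in the 2 fluids were apart. MiR-10b-5p and miR-409a-3p are described with their near-identical and antisense partners below, since their values depend on how such names were counted.

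Of 36 families defined by name, 20 took a larger share of counts in amniotic fluid and 12 a larger share in serum (exact permutation test on log2 share, Benjamini-Hochberg adjusted p under 0.05), and 4 did not pass. In 18 and 11 families, respectively, the shares of the 14 samples did not overlap. Of the 20, 15 were also on the amniotic fluid side by the mean rank of their members. The other 5, miR-23-27-24, miR-221-222, miR-26, miR-320 with miR-484, and miR-423, turned to the serum side by mean rank, so that no direction is given for them. All 10 serum families that had a tested member kept their side by mean rank. Shares are on the scale of library size only, where the median log2 fold change of the tested microRNAs was 1.58. The log2 share differences of let-7 (0.80), miR-99-100-125 (1.36), miR-23-27-24 (0.66), miR-221-222 (0.70) and miR-423 (0.48) lay below that median. The split of 20 against 12 thus depends on this scale. The smallest adjusted p that a family could reach was 0.000723, and it is the value of every family below unless another is given. Counts of called members below stand against 39.1% of all tested microRNAs called higher in amniotic fluid and 35.7% in serum.

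**Figure D3:**
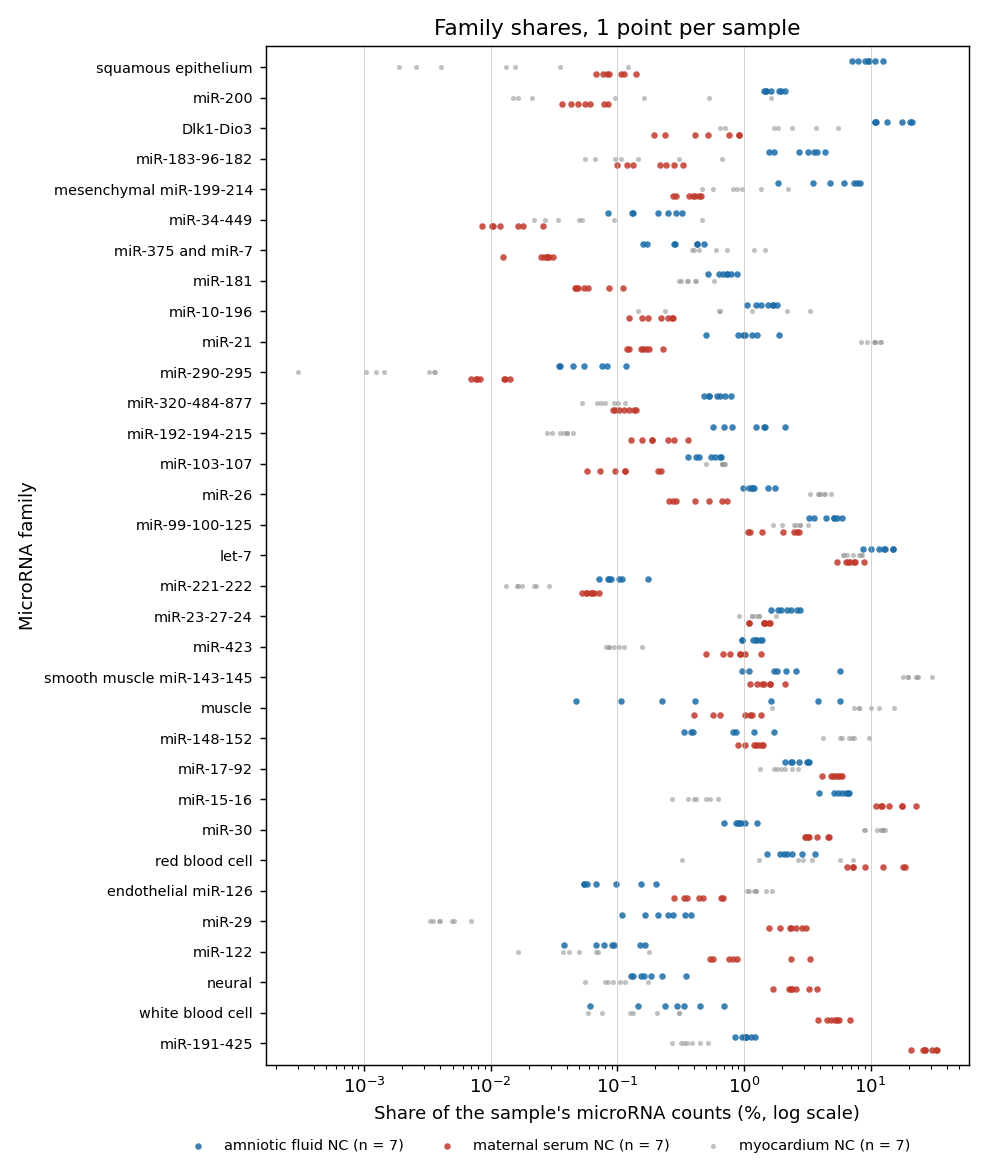
Share of the sample's microRNA counts (%, log scale) taken by each of 33 families that had counts in all 14 fluid samples, with 1 point per sample for amniotic fluid NC (blue), maternal serum NC (red) and myocardium NC (grey), ordered by the log2 difference between the fluids. The squamous epithelium pair at the top had 7.16% to 12.4% in amniotic fluid and 0.0685% to 0.140% in serum, and miR-191-425 at the foot had 0.853% to 1.22% and 21.0% to 33.2%.

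Epithelial microRNAs took a large part of amniotic fluid and were scarce in serum. MiR-203 and miR-205, which belong to skin and other squamous epithelium, held 9.54% ± 1.76 (SD, n = 7) of amniotic fluid counts and 0.0963% ± 0.0250 (SD, n = 7) of serum counts, a difference of 6.65 (SE 0.17) on the log2 scale, which turned to -1.78 when the 10 most abundant microRNAs of either fluid, these leaders among them, were left out. In NC myocardium their median was 0.0133%. MiR-205 had 18992, 37736 and 47663 CPM in amniotic fluid and 246, 399 and 508 CPM in serum, a log2 fold change of 4.86 (SE 0.30, adjusted p = 2.77e-11). The fluids did not overlap in either microRNA.

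The miR-200 family, which keeps epithelial cells from turning mesenchymal, held 1.72% ± 0.267 of amniotic fluid counts and 0.0584% ± 0.0177 of serum counts (SD, n = 7 each). Of its 6 tested members 5 were DE-microRNAs higher in amniotic fluid. MiR-429 led, with 7484, 9955 and 10700 CPM against 47.4, 72.8 and 117 CPM and a log2 fold change of 5.36 (SE 0.26, adjusted p = 9.11e-13). MiR-200c-3p, the leading member in serum, did not pass, with a log2 fold change of 0.26 (SE 0.29, adjusted p = 0.406) and overlapping ranks. The members of this family thus did not move alike between the fluids.

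The miR-183-96-182 cluster, known from sensory and other epithelia, held 3.0% ± 1.04 against 0.203% ± 0.0876 (SD, n = 7 each), and all 3 of its tested members were higher in amniotic fluid. MiR-182 had a median of 15881 CPM against 847 CPM, a log2 fold change of 2.65 (SE 0.29, adjusted p = 7.72e-08). The miR-34-449 family, of which miR-449 marks ciliated cells, held 0.203% ± 0.0904 against 0.0145% ± 0.00608, with 4 of 4 tested members higher in amniotic fluid. MiR-375-3p, a microRNA of pancreatic islets and mucosal epithelium, had a median of 2678 CPM against 173 CPM, a log2 fold change of 2.51 (SE 0.32, adjusted p = 6.16e-07).

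MicroRNAs of kidney and gut epithelium gave a less even picture. The miR-192-194-215 family held 1.19% ± 0.546 of amniotic fluid counts and 0.222% ± 0.0808 of serum counts (SD, n = 7 each). Its leading member miR-192-5p had 3544, 5964 and 12033 CPM against 1202, 1801 and 3469 CPM, but on the TMM scale its log2 fold change was 0.06 (SE 0.29, adjusted p = 0.841), and its ranks overlapped. MiR-194-5p was higher in amniotic fluid, with a log2 fold change of 2.02 (SE 0.36, adjusted p = 4.12e-05). MiR-215, with the same seed as miR-192-5p, had 1349, 3206 and 7397 CPM in amniotic fluid and was named neither in the serum table nor in that of myocardium, so that no fold can be given. MiR-215 held 3499 of the family's 10965 counts in amniotic fluid, so that the family's share there includes a name that serum lacked. Its sequence stands beside that of miR-192-5p.
miR-192-5p: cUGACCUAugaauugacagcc
miR-215: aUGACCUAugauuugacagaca
The miR-204-211 family of kidney and choroid plexus was near 0 in both fluids, with at most 0.0141% of the counts of any of the 14 samples, and did not pass.

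The imprinted Dlk1-Dio3 cluster, which is transcribed from the maternal chromosome in fetal tissues and placenta, had the largest mean share of amniotic fluid, although let-7 was larger in 4 of the 7 samples. It held 15.1% ± 4.69 (SD, n = 7) of counts there and 0.564% ± 0.303 (SD, n = 7) in serum, a difference of 4.91 (SE 0.38) on the log2 scale. The shares ran from 10.8% to 21.4% and from 0.195% to 0.916%, without overlap, and the median of NC myocardium was 1.85%. RefSeq places its microRNAs on chromosome 6 within 282 kb (chr6:134298094-134579828). Of 76 names listed in either fluid, 33 were tested. Of these, 29 were DE-microRNAs higher in amniotic fluid, 1 was higher in serum and 3 did not pass. Their median log2 fold change was 3.63, against -0.03 for all tested microRNAs.

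Many members contributed, and the leading member, miR-434-3p, held 21.0% of the cluster's counts in amniotic fluid. MiR-434-3p lies antisense to the retrotransposon-derived gene Rtl1 and had 14769, 35815 and 47343 CPM in amniotic fluid and 75.6, 186 and 411 CPM in serum, a log2 fold change of 5.60 (SE 0.42, adjusted p = 4.04e-10). MiR-382-5p had 15787, 27786 and 48531 CPM against 435, 994 and 1970 CPM, a log2 fold change of 3.11 (SE 0.39, adjusted p = 6.04e-07). MiR-127-3p, also antisense to Rtl1, had 11674, 13653 and 18421 CPM against 173, 490 and 925 CPM, a log2 fold change of 3.32 (SE 0.33, adjusted p = 2.65e-08). None of these 3 overlapped between the fluids.

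MiR-369-3p, the furthest apart of the cluster, had 1046, 1869 and 2368 CPM in amniotic fluid, while its median in serum was 0 and its highest value 8.89 CPM. Its log2 fold change was 7.24 (SE 0.58, adjusted p = 1.18e-09). MiR-379-5p had a median of 3500 CPM in amniotic fluid, 17.9 CPM in serum and 4315 CPM in myocardium. MiR-134-5p, miR-668 and miR-485-3p, which lie next to each other in the cluster, were those that did not pass, with log2 fold changes of 0.79 (SE 0.38), 0.72 (SE 0.66) and 0.28 (SE 0.39). MiR-134-5p was the leading member in serum. The median within-sample rank of the tested members was 57.4 in amniotic fluid, 14 in serum and 37.9 in myocardium.

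**Figure D4:**
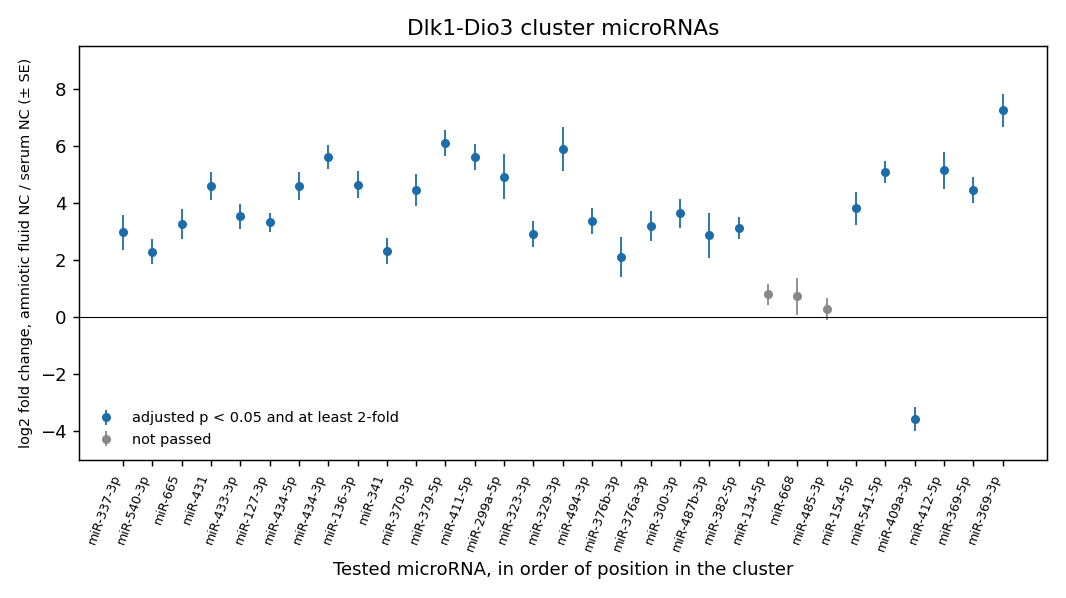
Log2 fold change (amniotic fluid NC over maternal serum NC, ± SE, n = 7 each) of the 31 tested Dlk1-Dio3 microRNAs with a position in RefSeq, in their order along the cluster. Blue points passed the threshold and grey points did not, and the lone blue point below 0 is miR-409a-3p at -3.58.

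Of further families with a larger share in amniotic fluid, members were called unevenly. The miR-199-214 family of mesenchymal cells held 5.69% ± 2.37 against 0.378% ± 0.0714 (SD, n = 7 each), with 3 of 3 tested members higher in amniotic fluid, and nearly all of it was miR-199a-3p. The miR-10-196 family, encoded in the Hox clusters, held 1.49% ± 0.279 against 0.210% ± 0.0598, with 4 of 5 tested members higher in amniotic fluid and miR-10b-5p higher in serum. MiR-196a-5p had 352, 1287 and 2092 CPM in amniotic fluid and 5.53, 10.9 and 27.8 CPM in serum, a log2 fold change of 4.85 (SE 0.48, adjusted p = 2.03e-08). The miR-99-100-125 family held 4.71% ± 0.994 against 1.92% ± 0.720, but without the 10 most abundant microRNAs of either fluid its log2 difference was 0.42 and did not pass (exact permutation test, adjusted p = 0.125). Of its 9 tested members 5 were higher in amniotic fluid, against 39.1% of all tested microRNAs, while its leading member, miR-125a-5p, had a log2 fold change of -0.99 (SE 0.25, adjusted p = 0.00111). The miR-103-107 family held 0.523% ± 0.117 against 0.127% ± 0.0649, with 1 of 2 tested members higher in amniotic fluid and miR-103-3p at 0.21 (SE 0.28, adjusted p = 0.503). The miR-181 family held 0.715% ± 0.118 against 0.0647% ± 0.0248, with 3 of 6 tested members higher in amniotic fluid and the other 3 between -0.23 and -0.03 without passing. MiR-21 held 1.1% ± 0.425 against 0.162% ± 0.0364. MiR-21-5p had a median of 10180 CPM in amniotic fluid and 1586 CPM in serum, a log2 fold change of 1.2 (SE 0.25, adjusted p = 0.000217), both below the 109023 CPM of NC myocardium. Without serum replicate 1, 2 or 7 its log2 fold change was 0.95, 0.91 or 0.86, under the 2-fold limit. Among the members counted above, the call of miR-196b-5p (1.28) was lost without amniotic fluid replicate 3, at 0.56, or without any 1 serum sample. That of miR-181d-5p (1.11) was lost without amniotic fluid replicate 1 or serum replicate 1, 2, 3, 5 or 7. That of miR-125b-2-3p (1.07) was lost without amniotic fluid replicate 2 or serum replicate 1, 2, 4 or 7.

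The let-7 family, which rises as cells mature, differed in its make-up more than in its total. Its share was 12.4% ± 2.36 in amniotic fluid and 7.04% ± 1.1 in serum (SD, n = 7 each, exact permutation test, adjusted p = 0.0014), and the ranges met. The 9 tested microRNAs with the let-7 seed are printed in full, since they share their seed and part in the bases after it.
let-7a-5p: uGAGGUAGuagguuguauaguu
let-7f-5p: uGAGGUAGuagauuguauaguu
let-7e-5p: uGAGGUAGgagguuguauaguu
miR-98-5p: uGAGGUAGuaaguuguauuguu
let-7d-5p: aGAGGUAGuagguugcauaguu
let-7i-5p: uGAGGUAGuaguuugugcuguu
let-7g-5p: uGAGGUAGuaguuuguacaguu
let-7c-5p: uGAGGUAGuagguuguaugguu
let-7b-5p: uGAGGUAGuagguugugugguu

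Of these 9, let-7a-5p, let-7e-5p, let-7f-5p and miR-98-5p were DE-microRNAs higher in amniotic fluid, and let-7b-5p, let-7c-5p and let-7g-5p were DE-microRNAs higher in serum on the TMM scale. With library size only, let-7b-5p and let-7c-5p kept log2 fold changes of -1.06 and -0.50, while let-7g-5p was at 0.07. Let-7e-5p had 4235, 5824 and 9802 CPM in amniotic fluid and 112, 187 and 258 CPM in serum, a log2 fold change of 3.57 (SE 0.25, adjusted p = 1.97e-10). Let-7i-5p, with a median of 30498 CPM in amniotic fluid and 11927 CPM in serum, was at -0.43 (SE 0.20, adjusted p = 0.0528) on the TMM scale and at 1.21 (adjusted p = 5.69e-06) with library size only, so that its direction rested on the scale.

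The make-up of the family needs no scale between fluids. Let-7b-5p and let-7c-5p together took 20.6% to 27.6% of the counts with this seed in amniotic fluid, with a median of 22.3%, and 55.0% to 77.3% in serum, with a median of 69.4%. Let-7a-5p and let-7f-5p together took 39.4% to 49.2% in amniotic fluid, with a median of 46.0%, and 6.71% to 12.1% in serum, with a median of 8.29%. The ranges did not overlap. In NC myocardium let-7i-5p and let-7f-5p led, with medians of 44.3% and 25.9%, and let-7b-5p took 1.04%. These names differ by few bases, so that reads could be split among them in either table. When near-identical names were summed, let-7a-5p, let-7b-5p, let-7c-5p, let-7e-5p and let-7f-5p fell into a single sum. Its log2 fold change was -0.74 (SE 0.18, adjusted p = 0.000685), and this value does rest on the TMM scale. The share of the whole family was larger in amniotic fluid, at 12.4% against 7.04%, and the sum was not tested without TMM factors.

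**Figure D5:**
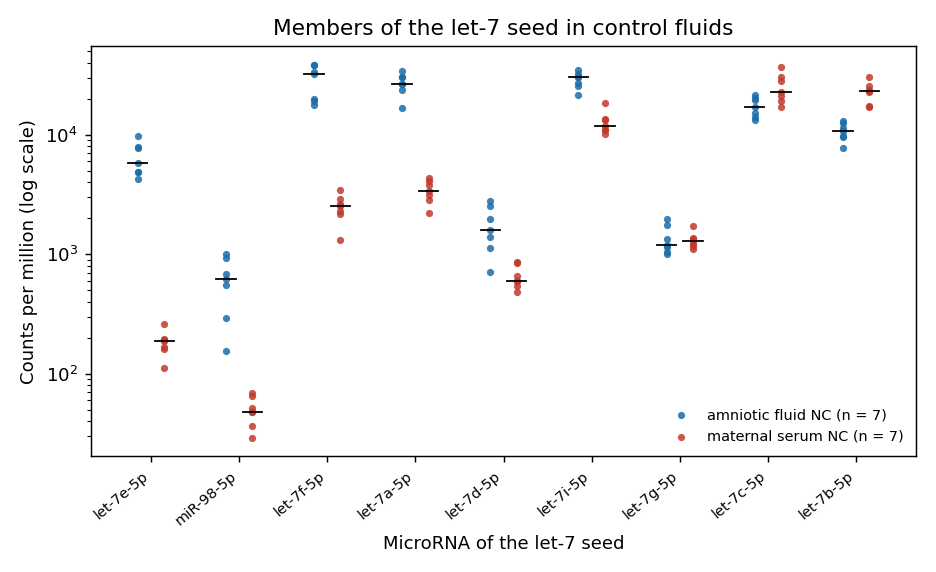
CPM (log scale) of the 9 tested microRNAs with the let-7 seed, with 1 point per sample for amniotic fluid NC (blue) and maternal serum NC (red) and a bar at the median, ordered by the ratio of the medians. Let-7e-5p had medians of 5824 and 187 CPM at the left, and let-7b-5p had 10744 and 23217 CPM at the right.

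White blood cell microRNAs, and miR-486 of red blood cells, were the counterpart in serum. The white blood cell list (miR-142, miR-150, miR-155 and miR-223) held 5.19% ± 0.948 (SD, n = 7) of serum counts and 0.319% ± 0.211 (SD, n = 7) of amniotic fluid counts, with 6 of its 7 tested members higher in serum. MiR-223-3p, the myeloid microRNA, had 23187, 35054 and 48798 CPM in serum and 114, 909 and 2400 CPM in amniotic fluid, a log2 fold change of -6.72 (SE 0.54, adjusted p = 1.18e-09). MiR-150-5p, a lymphocyte microRNA, had 6274, 9913 and 12637 CPM in serum and 275, 768 and 1317 CPM in amniotic fluid, a log2 fold change of -5.26 (SE 0.38, adjusted p = 2.83e-10). All serum samples lay above all amniotic fluid samples in both.

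The exception on that list came from the other arm of a hairpin. A hairpin precursor yields a mature microRNA from its 5′ arm and another from its 3′ arm, and both arms of miR-142 are printed for that reason.
miR-142-5p: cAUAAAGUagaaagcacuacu (chr10:73055119-73055139, plus strand, inside Tspoap1)
miR-142-3p: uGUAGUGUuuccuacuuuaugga (chr10:73055155-73055177, plus strand, inside Tspoap1)
The 5′ arm took 87.7% to 97.9% of miR-142 counts in serum, with a median of 94.7%, and 0% to 25.9% in amniotic fluid, with a median of 2.04%. In NC myocardium the arms were near balance, with a median of 52.6%. MiR-142-5p had a log2 fold change of -8.55 (SE 0.76, adjusted p = 5.38e-09), while miR-142-3p was at 0.14 (SE 0.56, adjusted p = 0.827). Among 89 hairpins with at least 100 counts from both arms together in each fluid, miR-142 was the only 1 whose leading arm differed between the fluids in all 14 samples, and 5 (let-7d, miR-142, miR-144, miR-324 and miR-503) differed by summed counts. MiR-140 was uneven without a change of leading arm, with log2 fold changes of -7.78 for miR-140-3p and -1.67 (SE 0.44, adjusted p = 0.00185) for miR-140-5p, whose medians were 160 CPM in serum and 105 CPM in amniotic fluid.

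Red blood cell microRNAs (miR-144, miR-451 and miR-486) held 11.3% ± 5.18 of serum counts and 2.38% ± 0.686 of amniotic fluid counts (SD, n = 7 each), almost all from miR-486. Without the 10 most abundant microRNAs of either fluid, miR-486 among them, the log2 difference was -1.01 and did not pass (exact permutation test, adjusted p = 0.157). MiR-486 had 64938, 89523 and 185132 CPM in serum and 15217, 19865 and 35454 CPM in amniotic fluid, a log2 fold change of -3.91 (SE 0.30, adjusted p = 6.07e-10). MiR-451-5p, the other erythroid microRNA with enough counts, overlapped, with 313, 551 and 1606 CPM in serum and 40.2, 507 and 1123 CPM in amniotic fluid and a log2 fold change of -1.76 (SE 0.54, adjusted p = 0.00591). MiR-486 and miR-451-5p therefore kept different proportions in the 2 fluids. The members too low to be tested, miR-144-3p, miR-144-5p and miR-451-3p, had 91, 75 and 0 counts in amniotic fluid. In serum, where total counts were higher, they had 48, 75 and 27. The part of red blood cell lysis in either fluid was not tested.

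Liver and vessel wall microRNAs were higher in serum as well. MiR-122-5p, which is nearly specific to hepatocytes, had 5356, 8167 and 33552 CPM in serum and 379, 910 and 1663 CPM in amniotic fluid, a log2 fold change of -5.30 (SE 0.50, adjusted p = 1.34e-08). The endothelial miR-126, encoded within Egfl7, held 0.462% ± 0.158 of serum counts and 0.0984% ± 0.0583 of amniotic fluid counts (SD, n = 7 each), with 2 of 2 tested members higher in serum. NC myocardium had a median of 1.25%.

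Several families of wide expression were also higher in serum. The miR-191-425 family held 28.3% ± 4.37 against 1.04% ± 0.116 of amniotic fluid counts (SD, n = 7 each), with 4 of 4 tested members higher in serum. The miR-29 family, which represses collagen genes, held 2.39% ± 0.533 against 0.247% ± 0.0952, with 3 of 3, and miR-29a-3p had 14084, 20253 and 25971 CPM in serum and 862, 1627 and 2809 CPM in amniotic fluid. The miR-30 family held 3.67% ± 0.713 against 0.946% ± 0.176, with 6 of 8 members higher in serum and 0 in amniotic fluid. The miR-15-16 family held 15.4% ± 4.28 against 5.77% ± 0.992, with 5 of 7 tested members higher in serum. The miR-17-92 family, a cluster of dividing cells, held 5.23% ± 0.600 against 2.75% ± 0.473, with 6 of 13 tested members higher in serum, against 35.7% of all tested microRNAs, and 7 that did not pass. The list of neural microRNAs was higher in serum through miR-128-3p, which made up 99.5% of it there and had a median of 23814 CPM against 1239 CPM, a log2 fold change of -5.57 (SE 0.34, adjusted p = 2.77e-11). Without the 10 most abundant microRNAs, miR-128-3p among them, the log2 difference of the list was -0.07 and did not pass (exact permutation test, adjusted p = 0.801). MiR-9a-5p, a defining neural microRNA, had 95 and 42 counts in all of amniotic fluid and serum and did not pass. Its other arm, miR-9a-3p, had 115 and 1 counts, and miR-138-5p had 19 and 116, and neither was tested. MiR-124-3p had 0 counts in amniotic fluid and was not named for serum.

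The muscle list held 0.0469%, 0.409% and 5.79% (lowest, median, highest) of amniotic fluid counts and 0.402%, 1.03% and 1.37% of serum counts, and did not pass (adjusted p = 0.607, exact permutation test). By the mean rank of its members it lay on the serum side, at -39.64 rank points (exact permutation test, adjusted p = 0.000916). Of its 5 tested members 4 were DE-microRNAs higher in serum, and 1, miR-206-3p, which held 96.2% of the list in amniotic fluid, was higher there. MiR-206-3p, of skeletal muscle, had 254, 3819 and 55998 CPM in amniotic fluid and 561, 775 and 1156 CPM in serum, a log2 fold change of 2.88 (SE 0.84, adjusted p = 0.00417) with overlapping ranges, and 2.16 without amniotic fluid replicate 5. MiR-133a-3p, of heart and skeletal muscle, had 2959, 7316 and 10209 CPM in serum, a median of 0 CPM and a highest value of 314 CPM in amniotic fluid, and a log2 fold change of -8.10 (SE 0.89, adjusted p = 8.53e-08). Replicate 5 held 78 of its 92 counts in amniotic fluid, and without it the log2 fold change was -10.13. Its median in NC myocardium was 7500 CPM, close to that of serum. The miR-143-145 list of smooth muscle did not pass, with 2.28% ± 1.60 against 1.5% ± 0.318 (SD, n = 7 each, exact permutation test, adjusted p = 0.302).

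Placental and germ line clusters were scarce in both fluids. The Sfmbt2 cluster, which is expressed in rodent trophoblast, held at most 0.0144% of any sample, and its mean was 0.00926% in serum and 0.00182% in amniotic fluid. The X-linked testis and ovary cluster held 0.0140% ± 0.00572 of serum counts and 0.00381% ± 0.00648 of amniotic fluid counts (SD, n = 7 each, exact permutation test, adjusted p = 0.00474), with overlapping shares. The miR-290-295 cluster of early embryo and placenta held 0.0101% ± 0.00308 of serum counts and 0.0635% ± 0.0301 of amniotic fluid counts (SD, n = 7 each), with 1 member tested, miR-292-5p, at a log2 fold change of 1.23 (SE 0.39, adjusted p = 0.00701). Its call was lost without serum replicate 2, 3 or 7, with log2 fold changes of 0.95, 1.0 and 0.95.

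Some microRNAs were counted in every sample of 1 fluid and in no sample of the other. With at least 10 counts in each of 7 samples, these were miR-215, miR-3553, miR-3557-5p and miR-409b in amniotic fluid, none of which the serum or the myocardium table names, and miR-10b-5p in serum, which the amniotic fluid table names with 0 counts in all 7 NC samples. Apart from miR-215, each has a partner of nearly the same sequence or of the opposite strand. Of these pairs 3 are printed so that this can be seen.
miR-10a-5p: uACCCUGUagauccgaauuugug (chr10:81779730-81779752, plus strand, in no other listed gene)
miR-10b-5p: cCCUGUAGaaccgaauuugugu (chr3:80035886-80035907, plus strand, inside Hoxd4)
miR-409a-3p: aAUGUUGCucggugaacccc (chr6:134579231-134579250, plus strand, in no other listed gene)
miR-409b: aGGGGUUCaccgagcaacauucg (chr6:134579229-134579251, minus strand, in no other listed gene)
miR-183-5p: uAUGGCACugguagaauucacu (chr4:59756106-59756127, minus strand, in no other listed gene)
miR-3553: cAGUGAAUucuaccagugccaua (chr4:59756105-59756127, plus strand, in no other listed gene)

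MiR-10a-5p and miR-10b-5p share most of their bases, with the RefSeq entry of miR-10b-5p beginning further along, so that the capitals differ. MiR-10b-5p had 269 to 679 counts per serum sample, 2807 in all. The upper limit for 0 counts was taken as 3 counts over the whole amniotic fluid group. Against that limit the serum level of miR-10b-5p was at least 319-fold higher, which covers counting error only. In the amniotic fluid VSD samples miR-10b-5p had 12 counts. MiR-10a-5p had a median of 12351 CPM in amniotic fluid and 793 CPM in serum, a log2 fold change of 2.18 (SE 0.21, adjusted p = 1.47e-08). With their counts summed, the pair stayed higher in amniotic fluid, at 1.13 (SE 0.23, adjusted p = 0.000175). How the reads were divided between the 2 names in each table was not tested.

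MiR-409b is read from the opposite strand of the same bases as miR-409a-3p. In amniotic fluid miR-409b had 8687 counts and miR-409a-3p 320, so that miR-409b took 95.8% to 97.7% of the pair in every sample, while in serum miR-409a-3p had 3337 counts. MiR-409a-3p alone was a DE-microRNA higher in serum (log2 fold change -3.58, SE 0.43, adjusted p = 3.17e-07), the lone member of the Dlk1-Dio3 cluster in that direction, and with both strands summed it was higher in amniotic fluid, at 1.34 (SE 0.37, adjusted p = 0.0027). In the VSD groups the counts were 6909 and 298 in amniotic fluid and 4272 for miR-409a-3p in serum.

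MiR-3553 lies opposite miR-183-5p and took 13% to 30% of that pair in amniotic fluid, and miR-3557-5p lies opposite miR-378a-3p and took 20.2% to 63.2% of that pair. In serum miR-183-5p and miR-378a-3p had 3480 and 3601 counts. The methods do not say whether counting used the strand, so that reads of these partners cannot be told apart here. Of the 577 names in either table, 530 had a RefSeq sequence, and 82 of them belonged to a pair that matched over at least 18 bases with at most 1 mismatch, 34 pairs on the same strand and 13 as reverse complements.

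Sequence features of both sides are given beside those of all tested microRNAs. The median GC content was 47.8% among the 84 sequences higher in amniotic fluid, 50% among the 75 higher in serum and 47.8% among all 213 tested microRNAs with a sequence. A U at the first base was found in 46.4%, 53.3% and 48.8%, and a U at the last base in 45.2%, 32.0% and 36.2%. These shares are a description, without a test.

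The same comparison in the VSD group, with the same difference in kits, gave 81 DE-microRNAs higher in amniotic fluid (37.3% of 217 tested) and 70 higher in serum (32.3%). Of the 79 amniotic fluid calls of the NC group that could be tested there, 72 were called again and 1 had a log2 fold change below 0. Of the 80 serum calls, 65 were called again and 2 were above 0. Of the 32 families that passed in the NC group, 27 passed in the same direction, the exceptions being miR-122, red blood cell, miR-23-27-24, miR-221-222 and miR-423. The Dlk1-Dio3 cluster held 11.8% ± 3.86 of amniotic fluid VSD counts and 1.15% ± 0.661 of maternal serum VSD counts, and the squamous epithelium pair held 9.03% ± 3.77 and 0.102% ± 0.0377 (SD, n = 7 each).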

How the data were processed

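Small RNA libraries of 7 amniotic fluid and 7 maternal serum samples of the NC group were compared. The submitters' processing notes name bcl2fastq 2.19 and DESeq. After trimming and a quality filter, the authors deposited raw counts of reads per mature microRNA. The aligner, the microRNA annotation and strand use are not given in the sources used here. Normalized columns and the authors' group comparisons (fold changes, p-values) were not used. The members, families and lists were chosen with earlier results of these data known.

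Counts were joined by name and tested with edgeR 4.0.16 in R 4.3.3 (TMM, filterByExpr keeping names that reach 10 counts in enough samples and 15 in total, quasi-likelihood test, Benjamini-Hochberg adjustment). CPM are per 1000000 listed counts, without TMM. Percentile ranks were taken over the 235 tested microRNAs, with ties averaged. Family shares (36 families, each with at least 50 counts in the 14 samples) were compared on the log2 scale after adding 0.5 counts, by exact two-sided permutation tests in Python 3.11.15, adjusted over the families. Named microRNAs were the 10 with the largest mean share in each fluid, the 12 per direction with the largest difference of median rank among DE-microRNAs with ranks apart and a mean count of at least 50 in the higher fluid, those with at least 10 counts in each sample of only 1 fluid, leading family members, and hairpins with a different leading arm. Others, such as miR-451-5p, miR-140-5p and the let-7 seed members, were named after their values were seen. On simulated data with known fold changes, 90.6% of 117 changed microRNAs that passed the filter were recovered and 0.741% of unchanged ones were called. Here a call was an adjusted p under 0.05 without the 2-fold limit. Both simulated fluids had the same mean profile apart from balanced changes, so that the simulation does not cover the choice of scale. The comparison was repeated without TMM factors, in DESeq2 1.42.0, in limma 3.58.1 after adding 1 to the CPM, with other filters, with all names of either table, the replicate number as a block, the VSD samples, and each sample left out in turn. Summing near-identical and antisense names was added after seeing the data. Intervals and the floor of 3 counts cover counting error only.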

Additional observations from a re-analysis of the deposited data

Results flagged for a closer look

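Dixon's test was run on 165 groups of 7 values, the shares of families, the CPM of named microRNAs and the totals of each fluid, and 15 held a sample past its critical value. Chance flags about 1 in 20 groups. No explanation was tested.

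In amniotic fluid, replicate 5 stood apart in 4 groups of values. Its miR-133a-3p was at 314 CPM (others 0 to 53.6), its miR-126a-5p at 548 CPM (others 12.1 to 218), its miR-3557-5p at 2735 CPM (others 593 to 1374) and its miR-221-222 family at 0.176% (others 0.0719% to 0.109%). Replicate 4 had 5.69% of its counts in the miR-143-145 family of smooth muscle (others 0.967% to 2.56%) and 2452 CPM of miR-148a-3p (others 201 to 707). Replicate 7 had 530 CPM of miR-140-3p (others 127 to 232). Replicate 3 had 0.0141% of its counts in the miR-204-211 family (others up to 0.00357%) and 0.0181% in the X-linked testis and ovary cluster (others up to 0.00352%).

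In serum, replicate 2 stood apart in 3 microRNAs, with let-7i-5p at 18526 CPM (others 10232 to 13483), miR-425-3p at 1194 CPM (others 596 to 828) and miR-335 at 34.4 CPM (others 0 to 8.89). Replicate 1 had 31.7 CPM of miR-434-5p (others 10.3 to 18.4). Replicate 5 had the lowest share of miR-375 and miR-7, 0.0125% (others 0.0248% to 0.0313%), and replicate 6 had the highest share of miR-204-211, 0.00806% (others 0.00139% to 0.00331%).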

How the results depend on the processing

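The number of DE-microRNAs followed the scale and the filter. With at least 10 counts in every sample, 127 microRNAs were tested, and 45 were higher in amniotic fluid and 42 in serum. Calls in serum numbered 47 with library size only, 53 with limma on log2(CPM + 1) and 138 without a filter, where 432 were tested. The expected number of detected microRNAs at 39617 counts differed by 37.1 (exact permutation p = 0.00699) against 9.8 at 79234 counts. With each sample left out, DE-microRNAs ranged from 93 to 100 in amniotic fluid and from 86 to 95 in serum, and families from 19 to 20 and from 12 to 13. The filter kept 244 to 249 microRNAs in these fits, against 235 with all samples, where 92 and 84 were called. These counts are therefore not of the same set of microRNAs. With the replicate number as a block, 87 and 86 DE-microRNAs were called, 86 and 84 of them the same as without it, and the only family call it changed was miR-423. Same-numbered samples correlated at -0.26 to 0.16, and whether they came from the same dam is not known.

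Among the microRNAs named for abundance or rank difference, let-7i-5p changed sign, at 1.21 with library size only and 1.22 with limma. MiR-409a-3p did so at 1.34 with antisense names summed, a setting added after seeing the data. Of all 84 serum calls, 10 were above 0 with library size only and 7 with limma. Among families, the mean percentile rank of the members (in rank points) was lower in amniotic fluid for miR-143-145 (-9.57), miR-23-27-24 (-9.49), miR-221-222 (-8.63), miR-26 (-9.77), miR-320 with miR-484 (-3.91) and miR-423 (-2.84), although the log2 share was higher, and for the muscle list (-39.64), where it passed. Without the 10 most abundant microRNAs of either fluid in the total, the log2 share difference was -0.55 for miR-143-145, -0.29 for miR-23-27-24, -0.24 for miR-221-222, -0.46 for miR-423 and -1.78 for squamous epithelium, whose leading members are themselves removed by that setting. The calls of red blood cell (-1.01), neural (-0.07) and miR-99-100-125 (0.42) were lost there. The muscle list, at -0.57, was at 0.82 percentage points on the linear scale, at 1.0 in the VSD samples and at 0.02 without amniotic fluid replicate 6 (range without any sample -1.13 to 0.02). In the VSD samples miR-221-222 was at -0.08. The miR-204-211 family was at 0.00 on the linear scale and between -0.47 and 0.28 with each sample left out. The miR-423 call was also lost without amniotic fluid replicate 1, 2 or 6 or serum replicate 5 or 6, and miR-148-152 was called lower in amniotic fluid without amniotic fluid replicate 3 (-0.93) or 4 (-1.02), by mean rank (-10.68 rank points), without the 10 most abundant microRNAs (-1.74) and in the VSD samples (-1.09). The cause of these changes was not tested, beyond what the settings remove. The depth of amniotic fluid, from 79234 counts, limits values below about 37.9 CPM, the level of 3 counts in the smallest sample.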
